A study of Mus musculus with 12 samples.

Results

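The genes described here are 50 genes of nucleolar ribosome assembly and RNA polymerase I, taken from the count table by gene symbol. The table holds 17210 genes, all 50 members were found in it once each, and all 50 were among the 11177 genes with enough counts to be tested. By known role they fall into 8 genes of RNA polymerase I and its start factors, 3 core proteins of box C/D and 4 of box H/ACA small nucleolar ribonucleoproteins, 18 small subunit and 13 large subunit processing genes, and 4 abundant nucleolar proteins with several roles. RNA was measured in G1E-ER4 cells, a mouse erythroid progenitor line without functional GATA1 of its own that carries a fusion of GATA1 with part of the estrogen receptor, so that estradiol activates it. Every group carried a retrovirus for 24 h, either the empty vector (Vector) or one for active SREBP2, residues 1 to 468 (SREBP2), a regulator of cholesterol genes. The cells then stayed untreated or received β-estradiol for 6 h (Vector+EST and SREBP2+EST). The estradiol dose is 500 nM in one label and 200 nM in another. Each of the 4 groups held 3 libraries, and a library is called by its group and its number in the table's header. The labels give the strain as C57BL/6J, and a figure legend of the study that includes these transcriptomes speaks of independent experiments. Which library came from which culture is not given, so p-values measure the spread between these samples, part of which may be technical.

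Ribosomes are built in the nucleolus. RNA polymerase I, recruited to ribosomal DNA by Ubtf and Rrn3, makes 1 long precursor RNA, small nucleolar ribonucleoproteins modify it (box C/D by ribose methylation, box H/ACA by pseudouridylation), and separate sets of processing factors cut and fold the parts for the small and the large subunit. Early erythroid progenitors make ribosomes at a high rate, and this output falls as red cells mature. Levels below are CPM, counts scaled to a common library size with TMM factors, which adjust for library composition. Errors are SD of the 3 libraries for levels and SE for log2 fold changes, and a gene was called when its adjusted p-value in edgeR's quasi-likelihood test was under 0.05. In bulk RNA, fewer cells of a type and less RNA per cell cannot be told apart.

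Library totals ran from 18700959 to 19152281 counts. The lowest count of any member in any library was 281, and the counts of 18 members, among them Rrn3, Fbl, Ubtf, Polr1b and Rrp1b, were not whole in at least 1 library, as happens when shared reads are divided between transcripts. Reads assigned to mouse Srebf2, the gene of SREBP2, measured 797 to 837 CPM in the 6 libraries labelled SREBP2, above the 355 to 456 CPM of the other 6. The species of the retroviral SREBP2 is not given in the labels, legends for related experiments speak of human SREBP2, and reads of the construct and of the cells' own gene cannot be told apart here. Gata1 reads, in which the fusion and the cells' own gene cannot be told apart, averaged 1769 CPM in Vector, 453 CPM in Vector+EST, 557 CPM in SREBP2 and 519.5 CPM in SREBP2+EST. The labels call the cells embryonic stem cells, but the 5 pluripotency markers in the table (Nanog, Sox2, Esrrb, Klf4 and Dppa5a) summed to at most 0.647 CPM in any library and none had enough counts to be tested. The 12 erythroid markers summed to 10031 to 10475 CPM in Vector and to 6452 to 7648 CPM in the other 9 libraries. Single markers went both ways, which the sum does not show. Against Vector, 8 were called lower and 3 higher in Vector+EST, and 7 lower and 3 higher in SREBP2. In SREBP2+EST, 8 were called lower and 3 higher. The part of these differences in the results below was not tested. The 8 myeloid markers summed to at most 8.51 CPM. The 8 stromal markers summed to 20.6 to 21.4 CPM in Vector, 6.12 to 36.5 CPM in Vector+EST, 5.40 to 7.53 CPM in SREBP2 and 18.8 to 35.2 CPM in SREBP2+EST. Of these, Col1a1, Fn1, Mmp2 and Igfbp7, picked after their values were seen, together reached 12.3 to 27.2 CPM in Vector+EST library 5 and all 3 SREBP2+EST libraries, and at most 0.310 CPM in the other 8. The remaining 4 (Col1a2, Col3a1, Dcn and Thy1) went another way, with sums of 20.4 to 21.3 CPM in Vector and 5.24 to 9.34 CPM in the other 9 libraries, and their part in the results was not tested either. Over all genes and over the members, 2 libraries stood apart from their groups. On the first principal component of all tested genes, SREBP2 library 1 lay at 29.6, beside SREBP2+EST libraries 2 and 5 at 31.0 and 31.2, while SREBP2 libraries 3 and 5 lay at 22.5 and 22.4 and SREBP2+EST library 1 at 26.1. On the second, SREBP2 library 1 lay at 9.81, beside 9.04 and 9.41 in SREBP2+EST libraries 2 and 5, and SREBP2+EST library 1 at 16.1, nearer to the 17.9 and 17.4 of SREBP2 libraries 3 and 5. The sum of Col1a1, Fn1, Mmp2 and Igfbp7 went with the labels instead, at 13.7 CPM in SREBP2+EST library 1 (25.8 and 12.3 CPM in libraries 2 and 5) and 0.159 CPM in SREBP2 library 1 (0.0542 and 0.217 CPM in libraries 3 and 5), although it was also low in 2 of 3 Vector+EST libraries. Since these 4 genes were picked after their values were seen, their sums are descriptions and support no result. No file settles how the 2 libraries that stood apart came to lie where they did, and this bears on every comparison with an SREBP2 group. The median member of SREBP2 library 1 lay at -1.06 on the log2 scale relative to Vector, against -0.81 and -0.80 in SREBP2 libraries 3 and 5. The median member of SREBP2+EST library 1 lay at -0.82, against -1.01 and -1.10 in SREBP2+EST libraries 2 and 5. Results that use these groups are therefore also given without both libraries. Since both were picked for where their values lay, leaving them out must draw the SREBP2 groups apart and narrow their spread, so those values are descriptions and support no result.

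EST lowered most of the members in Vector cells. Of the 50, 44 were lower and 6 were higher past the threshold. Among all genes tested, 35.5% were lower and 35.2% higher in this comparison. The median member had a log2 fold change of -0.85 and the median gene 0.01. In 44 members all 3 Vector+EST libraries lay below all 3 Vector libraries, against 37.9% of all genes, and in 5 members they lay above, against 37.7%. Only Gar1 overlapped. Together the 50 genes took 1.49% ± 0.0199 of the counts in Vector and 0.961% ± 0.0241 in Vector+EST (SD, n = 3). Class medians of the log2 fold change were -0.91 for the small subunit, -0.89 for the large subunit, -0.88 for polymerase I, -0.86 for the multifunctional proteins, -0.77 for box C/D and -0.31 for box H/ACA. Classes were compared by these medians and by counts only, without a test between them. Without Vector+EST library 5, the one of its group with Col1a1, Fn1, Mmp2 and Igfbp7 reads above 0.310 CPM, 44 members were lower and 5 higher, with a median of -0.84.

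**Figure D1:**
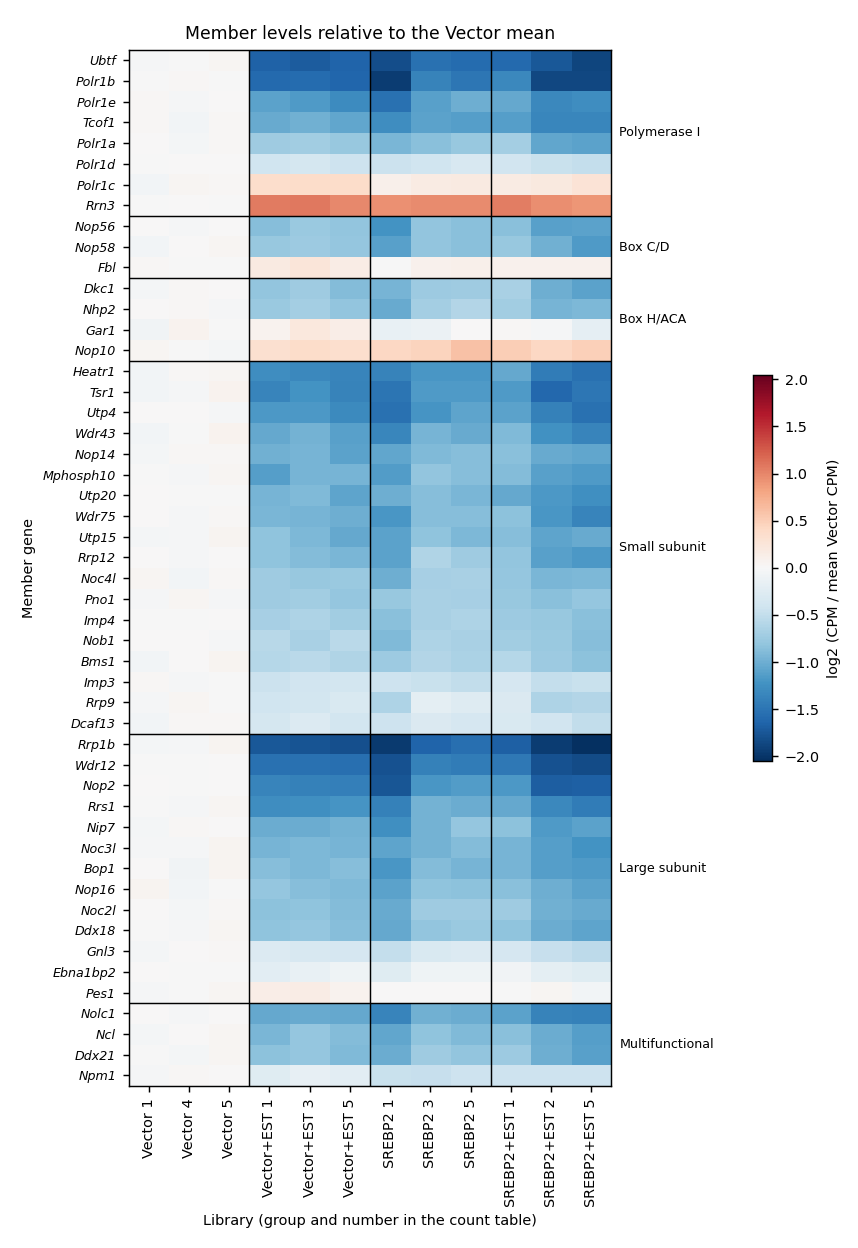
Heat map of the 50 members (rows, grouped by class and ordered by their change with EST) in the 12 libraries (columns), coloured by log2 of CPM over the mean Vector CPM. Vector libraries are near 0, the other 9 are blue for most members, and Rrn3, Polr1c and Nop10 are red in all 9.

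Polymerase I genes showed the widest spread. Ubtf (Entrez 21429, chr11:102304560-102319742 in GRCm38.p6), which binds along ribosomal DNA, stood at 329, 331 and 343 CPM in the Vector libraries and at 106, 102 and 107 CPM with EST. The libraries did not overlap, and the level fell by 68.5% (log2 fold change -1.67 ± 0.07, SE; edgeR adjusted p = 3.76e-12). Polr1b (20017), the second-largest subunit, was at 132, 134 and 131 CPM in Vector and 43.6, 44.2 and 42.9 CPM in Vector+EST. It fell by 67.0% (log2 fold change -1.60 ± 0.12, edgeR adjusted p = 8.43e-09). Polr1a, the largest subunit, fell less, from 183 ± 4.55 to 109.9 ± 3.01 CPM (SD, n = 3; log2 fold change -0.74). Polr1e, a subunit found only in polymerase I, fell from 43.1 ± 0.734 to 19.0 ± 1.30 CPM (-1.18 on the log2 scale). Tcof1, or treacle, which works with Ubtf at ribosomal DNA, fell from 255 ± 8.05 to 125 ± 4.03 CPM (-1.03). Polr1d and Polr1c are subunits that polymerase I shares with polymerase III, and they parted ways. Polr1d went down from 229 ± 2.03 CPM to 174 ± 4.63 CPM (-0.40 on the log2 scale). Polr1c (20016, chr17:46243920-46248054) stood at 50.8, 54.4 and 53.5 CPM in Vector and 68.2, 68.8 and 68.8 CPM in Vector+EST, and it rose (log2 fold change 0.37 ± 0.05, edgeR adjusted p = 1.87e-06).

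Rrn3 went furthest against the others. This gene (106298, chr16:13780708-13814839) encodes the factor that couples polymerase I to its promoter complex and that growth signals act on. It measured 149, 149 and 149 CPM in Vector libraries 1, 4 and 5 and 312, 316 and 295 CPM in Vector+EST libraries 1, 3 and 5. Every EST library was far above every Vector library, and the level rose 2.07-fold (log2 fold change 1.05 ± 0.04, edgeR adjusted p = 1.86e-12). The next largest rise was that of Polr1c. The call for Rrn3 held in all 21 alternatives run, with log2 fold changes from 0.97 to 1.06.

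Of the box C/D core, which holds the methyltransferase fibrillarin (Fbl) and its partners Nop56 and Nop58, the partners fell and the enzyme rose. Nop56 stood at 565, 556 and 566 CPM in Vector and 309, 334 and 320.4 CPM with EST (log2 fold change -0.81 ± 0.08). Nop58 went from 491 ± 16.6 to 288 ± 4.47 CPM (-0.77 ± 0.08 on the log2 scale). Fbl (14113, chr7:28169710-28179269) was at 491, 480.1 and 478 CPM in Vector and 546, 575 and 538 CPM in Vector+EST. Its rise was small but without overlap between the libraries (log2 fold change 0.19 ± 0.04, edgeR adjusted p = 2.02e-04).

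The box H/ACA core split evenly, with 2 members lower and 2 higher. Dkc1, the pseudouridine synthase, fell from 206 ± 4.66 to 117 ± 6.19 CPM (log2 fold change -0.81 ± 0.09). Nhp2, an RNA-binding core protein, fell from 229.9 ± 3.75 to 136 ± 4.90 CPM (-0.76 ± 0.08). Nop10 (66181, chr2:112261926-112263269), a very small protein that holds the enzyme in place, had levels of 170.0, 164 and 159 CPM in Vector and 206, 213 and 208 CPM in Vector+EST. It rose in every EST library (log2 fold change 0.34 ± 0.05, edgeR adjusted p = 4.32e-06). Gar1 (68147, chr3:129824912-129831396), the last of the core proteins to join, measured 68.9, 76.0 and 72.0 CPM in Vector and 75.8, 84.3 and 79.2 CPM in Vector+EST. These libraries overlapped, its adjusted p was 0.0499 (edgeR), and the call was lost in 14 of 21 alternatives, although the log2 fold change stayed positive in all 21.

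All 18 small subunit genes fell. The largest falls were in Heatr1, Tsr1 and Utp4. Heatr1, a large scaffold of the early small subunit particle that is also needed for polymerase I transcription, went from 215, 227 and 229.9 CPM in Vector to 92.3, 89.7 and 87.6 CPM in Vector+EST (log2 fold change -1.32 ± 0.09). Tsr1, which acts late in small subunit maturation, fell from 135 ± 5.77 to 54.4 ± 2.91 CPM (-1.31 ± 0.09). Utp4, another early particle protein, fell from 203 ± 1.97 to 87.0 ± 4.66 CPM (-1.22 ± 0.10). The smallest falls were in Dcaf13, Rrp9 and Imp3, with log2 fold changes of -0.34, -0.36 and -0.40. Rrp9 and Imp3 are proteins of the U3 particle, which cuts the precursor for the small subunit. Rrp9 was at 97.7, 102 and 98.8 CPM in Vector and 75.4, 77.0 and 80.0 CPM in Vector+EST, and its call was lost when libraries were corrected for GC content and transcript length.

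Of the 13 large subunit genes, 12 fell and Pes1 rose. Rrp1b (72462, chr17:32036100-32062865), a nucleolar protein of early large subunit assembly, had the largest fall of all members. It stood at 143, 144 and 153 CPM in Vector and 44.2, 42.9 and 42.2 CPM in Vector+EST, with no overlap, and fell by 70.7% (log2 fold change -1.77 ± 0.09, edgeR adjusted p = 4.62e-11). Nop2, an rRNA cytosine methyltransferase, fell from 268 ± 2.17 to 103 ± 2.18 CPM (-1.38 ± 0.13 on the log2 scale). Wdr12, Bop1 and Pes1 form 1 complex that is needed for large subunit RNA processing, and their transcripts did not move together. Wdr12 dropped from 189.9 ± 1.15 to 65.8 ± 0.521 CPM (-1.53 ± 0.09). Bop1 dropped from 171 ± 7.37 to 92.7 ± 1.80 CPM (-0.89 ± 0.07). Pes1 (64934, chr11:3963975-3980004) was at 239.8, 244 and 250.5 CPM in Vector and 269, 273 and 256 CPM in Vector+EST. Its libraries did not overlap and it rose slightly (log2 fold change 0.12 ± 0.04, edgeR adjusted p = 0.00858), a call lost in 3 of 21 alternatives. The other small changes of the class were log2 fold changes of -0.31 in Gnl3 (nucleostemin) and -0.15 in Ebna1bp2, the latter call lost in 2 alternatives.

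All 4 multifunctional nucleolar proteins fell, Npm1 by much less than the rest. Nolc1, a chaperone of small nucleolar ribonucleoproteins, went from 609, 599 and 611 CPM in Vector to 292, 297 and 292 CPM in Vector+EST (log2 fold change -1.05 ± 0.08). Ncl (nucleolin) fell from 2684 ± 82.0 to 1468 ± 77.8 CPM (-0.87 ± 0.07), and the RNA helicase Ddx21 from 278 ± 8.16 to 155 ± 6.39 CPM (-0.85 ± 0.08). Npm1 (nucleophosmin) fell the least of them, from 2301, 2382 and 2356 CPM to 1986, 2079 and 2023 CPM (-0.21 ± 0.03, edgeR adjusted p = 4.97e-06).

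**Figure D2:**
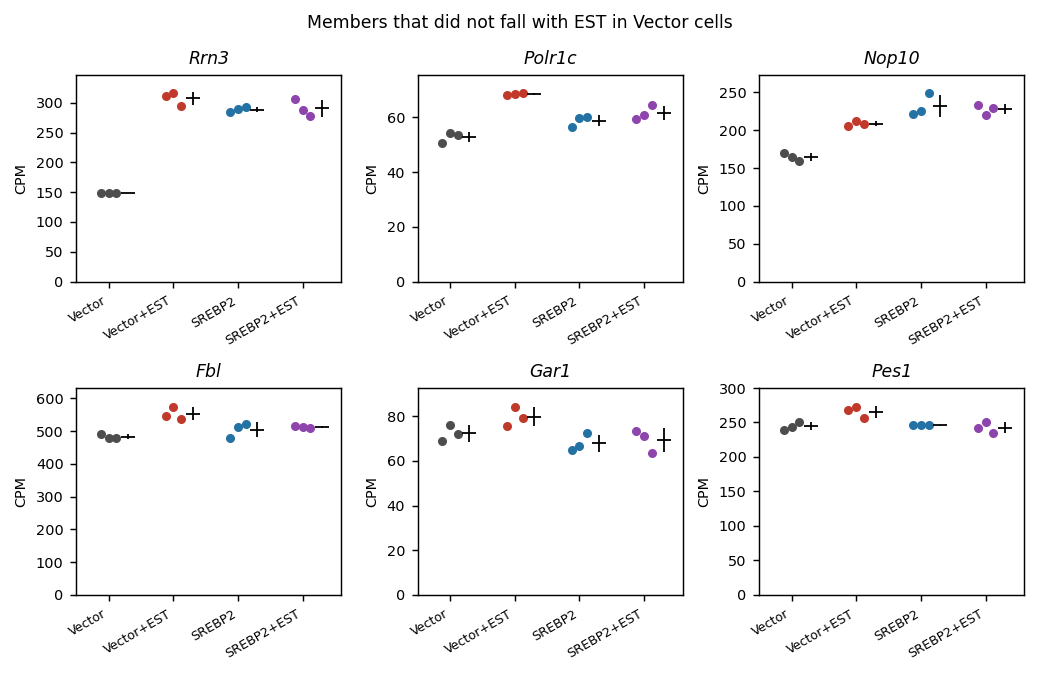
CPM of the 6 members that were higher with EST in Vector cells, by group, with a point for each of 3 libraries and the mean ± SD beside them (black). Vertical axes start at 0. Rrn3 lies at 279 to 316 CPM in the 9 libraries other than Vector, against 149 CPM in Vector, while the Gar1 libraries of Vector and Vector+EST overlap.

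Among the members, longer coding sequences went with larger falls. The Spearman correlation between coding length and the log2 fold change was -0.51 over the 50 members, and 0.04 over the 10885 tested genes with a coding length. The points share the same 6 libraries, so this is a description only. The members' median coding length was 1746 bases, against 1368 bases for all these genes. For transcript length the Spearman correlation was -0.55 over the members. With libraries corrected for GC content and transcript length, 43 members were lower and 6 higher (all genes, 35.9% and 34.6%), with a median of -0.85. That correction was fitted over all genes, and the part of length in the falls of the members was not tested. Between the CPM in Vector and the log2 fold change the Spearman correlation was -0.08 over the 50 members.

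Promoter windows from RefSeq (GRCm38.p6, 250 bases before to 50 after each transcript start) matched 43 of the 50 members, with 52 windows. Of these, 9 windows in 9 genes held CACGTG, the E-box that MYC and related factors bind, or 17.3%, against 7.15% of all 32851 windows and 9.96% of windows of tested genes. The variant CACGCG was in 28.8% of member windows, against 9.27% and 16.8%. CCGGAAG, a letter match for ETS factors, was in 32.7%, against 8.86% and 18.5%. GGGCGG was in 67.3%, against 35.7% and 61.1%, and CCAAT in 32.7%, against 37.4% and 39.1%. AGATAA (a form of the GATA factor motif) was in 0 of the 52 windows, against 11.2% and 7.02%. TCACNCCAC (a form of the sterol element) was also in 0, against 1.24% and 1.09%. Other forms of the GATA factor motif and the sterol element were not searched. All motifs were searched on both strands and none contains another. A match is only a match of letters, and no match says only that these letters are not in this window. The 250 bases before the start are given for Rrn3, which rose, and for Nop2 and Imp4, which fell, because these 3 are the members with CACGTG ahead of the start, the E-box being in capitals.
Rrn3 (chr16:13780449-13780698, plus strand): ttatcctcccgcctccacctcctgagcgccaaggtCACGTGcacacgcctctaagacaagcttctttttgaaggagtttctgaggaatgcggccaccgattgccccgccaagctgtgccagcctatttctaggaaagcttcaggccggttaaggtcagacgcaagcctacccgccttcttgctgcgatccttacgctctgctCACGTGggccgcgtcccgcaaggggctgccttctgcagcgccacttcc
Nop2 (chr6:125131633-125131882, plus strand): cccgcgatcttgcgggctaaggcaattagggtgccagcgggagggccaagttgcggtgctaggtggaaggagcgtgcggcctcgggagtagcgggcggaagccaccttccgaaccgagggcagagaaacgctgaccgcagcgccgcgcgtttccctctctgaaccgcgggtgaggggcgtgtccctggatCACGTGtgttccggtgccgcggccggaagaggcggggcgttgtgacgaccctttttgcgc
Imp4 (chr1:34439579-34439828, plus strand): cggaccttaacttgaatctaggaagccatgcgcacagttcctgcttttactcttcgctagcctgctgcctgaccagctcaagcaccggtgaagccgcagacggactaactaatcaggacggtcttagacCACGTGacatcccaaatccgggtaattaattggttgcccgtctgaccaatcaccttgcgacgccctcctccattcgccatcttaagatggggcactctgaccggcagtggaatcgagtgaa
The capitals begin 215 and 48 bases before the start in Rrn3, 60 bases before it in Nop2 and 121 bases before it in Imp4. The same motif thus stood ahead of the member with the largest rise and of members that fell. Imp4, a U3 particle protein, went from 126 ± 1.12 to 79.0 ± 2.35 CPM with EST in Vector cells (log2 fold change -0.68 ± 0.05). In the other 6 genes with the motif (Utp4, Utp20, Pes1, Pno1, Tsr1 and Wdr43) it lay after the start.

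Other genes of ribosome assembly, from lists drawn up by role, moved in the same direction with EST in Vector cells. Of 113 genes tested, 95 were lower and 7 higher past the threshold, with a median log2 fold change of -0.53. By list, the medians were -0.76 over 9 snoRNP assembly genes (9 lower, 0 higher), -0.61 over 35 small subunit genes (32 lower, 1 higher), -0.55 over 41 large subunit genes (35 lower, 2 higher), -0.38 over 15 exosome and RNA trimming genes (12 lower, 1 higher) and -0.27 over 13 polymerase I genes (7 lower, 3 higher). The largest falls were -1.41 in Cd3eap and -0.72 in Polr2h (polymerase I), -1.15 in Naf1 and -0.86 in Nufip1 (snoRNP assembly), -1.51 in Pwp2 and -1.30 in Utp18 (small subunit), -1.32 in Gtpbp4 and -1.24 in Mdn1 (large subunit), and -0.96 in Nol12 and -0.76 in Exosc6 (exosome and trimming). Genes that rose did so by less, with log2 fold changes of 0.28 in Znrd1 and 0.20 in Taf1c (polymerase I), 0.17 in Ngdn (small subunit), 0.25 in Nop53 and 0.10 in Nsa2 (large subunit) and 0.22 in Mphosph6 (exosome). Among 10 upstream regulators of ribosome output, 6 were lower and 1 higher, with a median of -0.12. Myc, a transcription factor that drives ribosome genes, measured 415, 391 and 395 CPM in Vector and 128, 122 and 128 CPM in Vector+EST (log2 fold change -1.67 ± 0.14, edgeR adjusted p = 3.08e-08). Cdkn1a, a p53 target that slows the cell cycle, fell by 0.78 and Mdm2, which degrades p53, rose by 0.33 on the log2 scale.

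SREBP2 without EST lowered members of all 6 classes. Relative to Vector, 44 members were lower and 3 higher, where 33.8% of all genes were lower and 37.7% higher. The median member had a log2 fold change of -0.89 and the median gene 0.03. In 44 members all SREBP2 libraries lay below all Vector libraries (35.5% of all genes), and in 3 above (39.2%). Class medians were -1.01 for polymerase I, -0.98 for the large subunit, -0.92 for box C/D, -0.89 for the multifunctional proteins, -0.87 for the small subunit and -0.43 for box H/ACA. This comparison and the EST effect in Vector cells share the 3 Vector libraries, so their values are set side by side only. Without SREBP2 library 1 and SREBP2+EST library 1 the counts were again 44 and 3, with a median of -0.86.

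**Figure D3:**
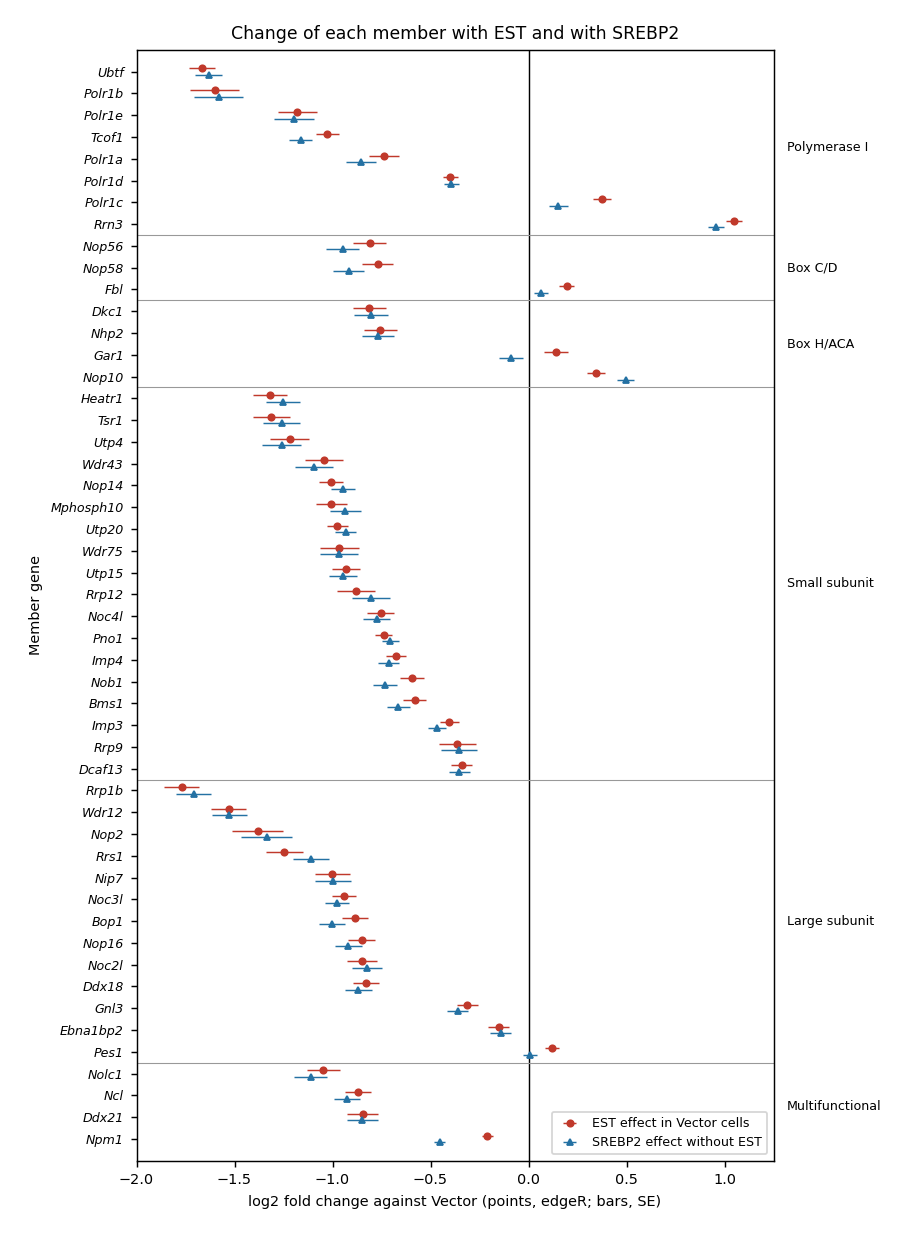
Log2 fold changes against Vector of the 50 members (rows, by class) with EST (red circles) and with SREBP2 (blue triangles), with SE bars; both use the same 3 Vector libraries. All 18 small subunit genes lie left of 0 in both, and Rrn3 lies near 1 in both.

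The largest falls with SREBP2 were again in Rrp1b, Ubtf and Polr1b. Rrp1b measured 37.6, 47.0 and 50.5 CPM in SREBP2 libraries 1, 3 and 5, a log2 fold change of -1.71 ± 0.09. Ubtf measured 95.4, 116 and 112 CPM (-1.63 ± 0.07), and Polr1b 34.4, 51.0 and 47.3 CPM (-1.58 ± 0.12). Library 1 was the lowest of the 3 in each of these genes, and all 3 libraries were below every Vector library. Nop2 stood at 106 ± 22.9 CPM, Wdr12 at 65.9 ± 9.64 CPM, Nolc1 at 281 ± 38.6 CPM, Ncl at 1411 ± 118 CPM and Heatr1 at 94.2 ± 6.17 CPM (SD, n = 3). Their log2 fold changes against Vector were -1.34, -1.53, -1.11, -0.93 and -1.25. Npm1 stood at 1717, 1689 and 1739.9 CPM, a log2 fold change of -0.45 ± 0.03. Among the smaller falls, Dcaf13 changed by -0.35, Rrp9 by -0.35, Gnl3 by -0.36 and Ebna1bp2 by -0.14. The call for Rrp9 was lost with the GC content and length correction and that for Ebna1bp2 in 3 alternatives.

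Rrn3, Nop10 and Polr1c were higher with SREBP2. Rrn3 measured 284, 289.8 and 292 CPM, 1.94-fold over Vector (log2 fold change 0.96 ± 0.04, edgeR adjusted p = 4.32e-12). Nop10 measured 222, 225 and 249 CPM (0.50 ± 0.05, adjusted p = 5.48e-08). Polr1c measured 56.6, 59.7 and 60.2 CPM (0.15 ± 0.05, adjusted p = 0.00774), and this call was lost with library totals alone and without Vector library 5. The other 3 members that had risen with EST were not called with SREBP2 in the fit of all libraries. Fbl was called higher without SREBP2 library 1 and with the GC content and length correction, and Gar1 lower with library totals alone. Fbl was at 479.5, 514 and 522 CPM (log2 fold change 0.06 ± 0.04, edgeR adjusted p = 0.135), Gar1 at 64.9, 66.8 and 72.3 CPM (-0.09 ± 0.06, adjusted p = 0.215) and Pes1 at 246, 246 and 246 CPM (0.01 ± 0.04, adjusted p = 0.871). Libraries of both groups overlapped in all 3 genes.

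Of the other assembly genes, 97 of 113 were lower with SREBP2 and 4 higher, with a median log2 fold change of -0.55. Myc stood at 107, 166 and 164 CPM in SREBP2 libraries 1, 3 and 5 (-1.46 ± 0.14 on the log2 scale, edgeR adjusted p = 1.31e-07), again lowest in library 1.

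Few members were called between SREBP2 and Vector+EST cells, which were compared directly. In SREBP2, 5 members were lower and 1 was higher, where 8.96% of all genes were lower and 14.4% higher. The median log2 fold change was -0.02. Npm1 differed most, at 1717, 1689 and 1739.9 CPM in SREBP2 against 1986, 2079 and 2023 CPM in Vector+EST (log2 fold change -0.24 ± 0.03, edgeR adjusted p = 6.86e-06). The other lower members were Gar1 (-0.23 ± 0.06, adjusted p = 0.0131), Polr1c (-0.22 ± 0.05, 0.00206), Fbl (-0.13 ± 0.04, 0.0182) and Pes1 (-0.11 ± 0.04, 0.0374). The EST effect in Vector cells uses the same 3 Vector+EST libraries with the opposite sign, so the directions of a gene in these comparisons are not independent. Nop10 was higher (0.15 ± 0.04, 0.0224), a call lost in 6 of 21 alternatives. Of the lower members, the calls for Npm1 and Polr1c held in all 21, and those for Gar1, Fbl and Pes1 were lost in 2, 3 and 8. Rrn3 did not pass the threshold (-0.09 ± 0.04, edgeR adjusted p = 0.112), nor did Ubtf (0.03 ± 0.07), Rrp1b (0.06 ± 0.10) or Wdr12 (0.00 ± 0.09). Of the 50 values 20 were positive, against the median, and the 19 not called among them ran up to 0.13. The largest of these were 0.06 in Rrp1b, 0.07 in Heatr1, 0.07 in Mphosph10, 0.08 in Rrp12 and 0.13 in Rrs1. The other 14 were Wdr12, Nip7, Polr1d, Dkc1, Rrp9, Ebna1bp2, Polr1b, Noc2l, Ubtf, Pno1, Utp20, Nop2, Tsr1 and Nop14, at 0.00 to 0.06. A p-value that misses the threshold does not show that levels were alike. The median changed sign without SREBP2 library 1 (0.06) and was -0.07 without SREBP2 library 3 or 5, and without Vector+EST library 3 the calls were 1 higher and 2 lower, where 11.5% and 5.44% of all genes were. Without SREBP2 library 1 and SREBP2+EST library 1 together, 12 members were higher in SREBP2 and 5 lower, where 18.7% and 15.7% of all genes were, with a median of 0.06.

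**Figure D4:**
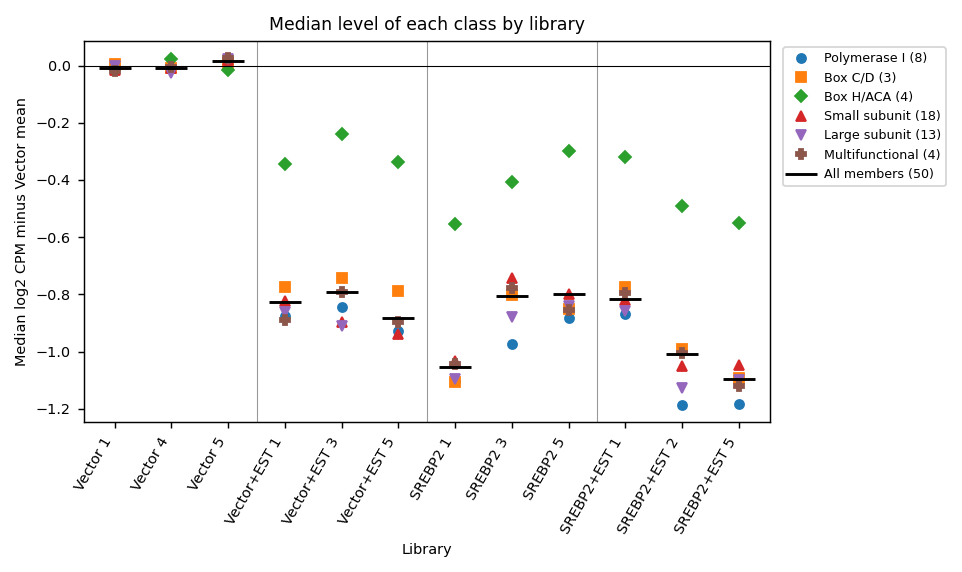
Median log2 CPM of each class in the 12 libraries, after subtracting each gene's Vector mean (markers, number of genes in brackets), and of all 50 members (black bars). Box H/ACA lies highest in the 9 libraries other than Vector, and SREBP2 library 1 and SREBP2+EST library 1 lie nearer the other group's libraries than their own.

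With EST present, SREBP2 changed few members past the threshold. In SREBP2+EST against Vector+EST, 7 members (14%) were lower and 0 higher, where 7.94% of all genes were lower and 14.0% higher. The median log2 fold change was -0.11, and 48 of 50 values were negative, against 5699 of 11177 over all genes. The median was -0.06 without SREBP2+EST library 5 and -0.20 without SREBP2+EST library 1. Npm1 again had the firmest call, at 1751, 1748 and 1749 CPM in SREBP2+EST (log2 fold change -0.21 ± 0.03, edgeR adjusted p = 2.92e-05), and it was the only one of the 7 whose call held in all 21 alternatives. Tcof1 stood at 117, 101 and 101 CPM against 125, 129 and 121 CPM (-0.24 ± 0.06, edgeR adjusted p = 0.00826). The others were Gar1 (-0.20), Polr1c (-0.16), Pes1 (-0.13), Fbl (-0.11) and Utp20 (-0.18), the last a small subunit scaffold. The positive values were 0.12 ± 0.04 in Nop10 and 0.03 ± 0.06 in Nop14, neither past the threshold (edgeR adjusted p = 0.0586 and 0.79). This count depended on the libraries. Without SREBP2 library 1 and SREBP2+EST library 1, 39 members were lower (14.0% of all genes) and the median was -0.21. Without SREBP2+EST library 1 alone 22 were lower (8.18%), and without SREBP2 library 1 alone 16 were lower (11.4%) and 1 higher. Without Vector+EST library 1 or 3 there were 3 and 2 lower (4.57% and 4.50%), and without SREBP2+EST library 2 or 5 there were 4 and 3 (5.05% and 4.89%). By DESeq2 11 were lower (9.35%), and with library totals alone 19 (15.8%).

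No member was called for EST in cells with added SREBP2. In SREBP2+EST against SREBP2, 0 members and 0% of all genes passed edgeR's threshold. At an unadjusted p under 0.05 there were 3 members and 506 genes, and DESeq2 called 0 members and 6 genes. The median member was at -0.08 and values ran from -0.22 to 0.07. The 6 positive values were 0.07 in Polr1c, 0.04 in Imp3, 0.03 in Gar1, 0.03 in Npm1, 0.02 in Fbl and 0.01 in Rrn3. Single libraries moved this median from -0.03 (without SREBP2+EST library 5) to -0.16 (without SREBP2+EST library 1), with -0.04 without SREBP2 library 3 or 5 and -0.15 without SREBP2 library 1. Ubtf, for example, was at 95.4, 116 and 112 CPM in SREBP2 libraries 1, 3 and 5 and at 110.3, 100.5 and 90.3 CPM in SREBP2+EST libraries 1, 2 and 5. The lowest library of the first group and the highest of the second were both library 1, and the groups overlapped. The same was seen in Polr1b, at 34.4, 51.0 and 47.3 CPM and 52.7, 36.1 and 36.2 CPM. Libraries of these groups varied more. The median coefficient of variation of the members was 10.01% in SREBP2 and 9.58% in SREBP2+EST, against 2.27% in Vector and 2.98% in Vector+EST. No member was called when SREBP2 library 1 or SREBP2+EST library 1 was left out alone. Without both, 36 members were lower with EST and 0 higher (all genes, 7.70% and 6.18%), with a median of -0.25, a fall that the choice of these libraries widens by itself. Col1a1, Fn1, Mmp2 and Igfbp7 summed to 12.3 CPM or more in each SREBP2+EST library and to at most 0.217 CPM in the SREBP2 libraries, so for this comparison what they mark and EST cannot be told apart.

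SREBP2+EST cells had the lowest median of the 3 groups set against Vector, but the libraries of these groups overlapped. The median member of the libraries averaged -0.97 ± 0.14 in SREBP2+EST, -0.89 ± 0.15 in SREBP2 and -0.83 ± 0.05 in Vector+EST (SD, n = 3). Col1a1, Fn1, Mmp2 and Igfbp7 summed to at least 12.3 CPM in each SREBP2+EST library and at most 0.257 CPM in Vector. Their part in SREBP2+EST against Vector was not tested. Of the 50, 44 were lower and 4 higher (all genes, 34.2% and 38.6%), with a median log2 fold change of -0.97, or -1.09 without the library 1 of both groups. Rrp1b was at 45.9, 38.1 and 35.5 CPM (-1.88 ± 0.09) and Nop2 at 118, 83.0 and 83.8 CPM (-1.49 ± 0.13). The 4 higher members were Rrn3 at 307, 287 and 279 CPM (0.97 ± 0.04), Nop10 at 233, 220.2 and 229.6 CPM (0.47 ± 0.05), Polr1c at 59.5, 60.8 and 64.4 CPM (0.22 ± 0.05) and Fbl at 514, 513 and 511 CPM (0.09 ± 0.04). The call for Fbl was lost in 17 of 21 alternatives. Members took 0.878% ± 0.0504 of the counts in SREBP2 and 0.848% ± 0.0566 in SREBP2+EST (SD, n = 3).

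The EST effect differed between SREBP2 and Vector cells in 47 of the 50 members, by the interaction term of the fit. In 42 the difference was positive, meaning that the log2 fold change with EST was lower in Vector cells than in SREBP2 cells. In 5 it was negative (all genes, 29.8% and 29.2%). No member was called for EST in SREBP2 cells. The interaction holds the EST effect in Vector cells with the opposite sign, so it is not independent of that effect. The median interaction was 0.75, and 0.61 without library 1 of both SREBP2 groups, when 42 and 4 members were called. Class medians were 0.81 for the large subunit, 0.79 for polymerase I, 0.78 for the multifunctional proteins, 0.72 for box C/D, 0.71 for the small subunit and 0.28 for box H/ACA. The largest were 1.59 ± 0.13 in Rrp1b (edgeR adjusted p = 4.07e-08), 1.56 ± 0.10 in Ubtf (1.60e-09) and 1.52 ± 0.18 in Polr1b (2.87e-06). The negative ones were -1.04 ± 0.06 in Rrn3 (3.30e-10), -0.37 ± 0.06 in Nop10 (1.11e-04), -0.31 ± 0.07 in Polr1c (6.98e-04), -0.17 ± 0.05 in Fbl (0.0101) and -0.14 ± 0.05 in Pes1 (0.0306). The call for Pes1 was lost in 12 of 20 alternatives and that for Fbl in 3. Rrp9 (0.22 ± 0.13), Ebna1bp2 (0.12 ± 0.07) and Gar1 (-0.11 ± 0.09) did not pass.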

How the data were processed

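The authors sequenced oligo(dT)-selected mRNA and deposited 1 table of estimated counts per gene for 12 libraries (18700959 to 19152281 in total per library), not normalized, with 66.5% of values whole. The submitters' processing notes name GRCm38.p6, HISAT2 2.0.4, Bowtie2 2.2.5, RSEM 1.2.12 and DESeq2 1.4.5, with no roles. A second deposited table holds the authors' own pairwise comparisons per transcript (fold changes and p-values) and was not used. In 18 members some counts are not whole, as happens where reads shared with other transcripts are divided, and the strand setting is not given in the sources used here.

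Groups came from the sample titles. Table headers carry a group and a number, which differs from the replicate given in the titles and has no stated meaning. Counts were rounded, genes were filtered with filterByExpr (11177 kept, 6033 left out) and scaled by TMM, and 7 contrasts were tested in 1 fit of 12 libraries with the quasi-likelihood F-test of edgeR 4.0.16 (R 4.3.3), with Benjamini-Hochberg adjustment over all genes tested and a threshold of 0.05. Each SE was derived from the log2 fold change and its F statistic. Log2 CPM used a prior count of 2. Checks on simulated counts ran first.

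The members and gene lists were chosen with earlier results of these data known. Named are all members of the polymerase I, box C/D, box H/ACA and multifunctional classes, the 3 largest and 3 smallest changes of the subunit classes, members whose sign is opposite to the median, Myc and the 2 largest changes each way per other list. Bop1, Imp4 and Wdr43 fall outside this rule and were named after their values were seen. Alternatives were DESeq2 1.42.0, relative log expression scaling, library totals alone, omission of the filter, a stricter filter (10 counts or more throughout), a fit restricted to the compared groups, omission of single libraries or of both that stood apart, the header number as a replicate block, and a smooth adjustment for GC and transcript length (mgcv 1.9.3; 1 GENCODE M21 transcript per gene, for 97.5% of genes). Gene positions are from GENCODE M21 and promoters from RefSeq, both GRCm38.p6.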

Additional observations from a re-analysis of the deposited data

Results flagged for a closer look

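The EST effect on the members differed between SREBP2 and Vector cells by a test of the difference itself. The interaction was past edgeR's threshold in 47 of 50 members, where it was past it in 59.0% of all genes tested, with a median of 0.75 on the log2 scale. It holds the EST effect in Vector cells with the opposite sign, so it is not independent of that effect. The SREBP2 libraries were at -1.06, -0.81 and -0.80 and the SREBP2+EST libraries at -0.82, -1.01 and -1.10 for the median member relative to Vector, and leaving out library 1 of both groups gave a median interaction of 0.61. The sum of Col1a1, Fn1, Mmp2 and Igfbp7 was 0.159 CPM in SREBP2 library 1 and 13.7 CPM in SREBP2+EST library 1, in each case like the other libraries of the labelled group. These genes were picked after their values were seen, so their sums are descriptions and support no result. What produced the difference was not tested.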

How the results depend on the processing

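The median log2 fold changes kept their direction for 6 of the 7 comparisons under every alternative run, the exception being SREBP2 against Vector+EST, and no call of a named member turned to the opposite sign. The number of called members in SREBP2+EST against Vector+EST was the least stable. In the fit reported 7 were lower (7.94% of all genes). With library totals alone 19 were lower (15.8%), without the low-count filter 12 (4.67%) and by DESeq2 11 (9.35%). With only the libraries compared 10 were lower and 1 higher (7.83% and 14.5%). Leaving out single libraries gave between 2 (4.50% lower) and 22 (8.18% lower). Without SREBP2 library 1 and SREBP2+EST library 1, 39 were lower (14.0%). With those 2 libraries left out, EST in SREBP2 cells gave 36 lower members (7.70%) with a median of -0.25. SREBP2+EST against Vector then had a median of -1.09 and the interaction 0.61. SREBP2 against Vector+EST gave 17 members in place of 6, 12 higher and 5 lower (all genes, 18.7% and 15.7%). For that last comparison, leaving out single libraries gave between 3 members (without Vector+EST library 3; all genes, 11.5% higher and 5.44% lower) and 7 (without SREBP2 library 1; 16.4% and 12.1%). Both libraries were chosen for their position, which by construction widens the differences between the SREBP2 groups when they are left out. No member passed for EST in SREBP2 cells when 1 library was left out, with medians from -0.16 to -0.03. The cause of the other changes was not tested. With the header numbers as a replicate block, SREBP2 with EST gave 1 member (Npm1, where 1.82% of all genes were lower) and a median of -0.06. In the same fit EST in SREBP2 cells had a median of -0.02, and SREBP2 against Vector+EST gave 3 lower members (4.59% of all genes). The interaction's negative calls went from 5 to 3, and the other totals of called members stayed within 1.5 times. A fit of only the libraries compared was not run for the interaction, which needs all 12. The numbers were not taken as pairs, since same-numbered libraries of different groups had correlations of deviations from -0.47 to 0.29. With 3 libraries per group, differences in the SREBP2 groups, where members varied most between libraries, are measured less closely than those in Vector and Vector+EST.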
